A study of Solanum lycopersicum with 12 samples.

Results

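A set of 10 genes of jasmonate synthesis, jasmonate perception and the wound response were followed in tomato (Solanum lycopersicum) seedlings given abscisic acid (ABA) or iSB09, a compound whose ability to elicit ABA-responsive expression the series examines. Its members are the rows of the count table with the given IDs, version suffix aside: 5 for synthesis (LOXD, both AOS copies, AOC and OPR3), 2 for perception and signalling (COI1 and MYC2) and 3 for wound-induced proteins (proteinase inhibitor II, threonine deaminase and LapA). All 10 were found among the 34075 IDs of the table, and 9 had enough reads to be tested. Names are those given with the set. The RefSeq gene table used here holds 0 IDs of this kind, so names were not tied to IDs by an annotation; 9 of the 10 names have a RefSeq symbol on the chromosome that the ID's number gives. Wild-type whole seedlings were placed in liquid medium 3 days after germination and kept for 8 days at 22 °C under 16 h of light and 8 h of dark. They then had 3 h in fresh medium with 0.1% DMSO (mock), 10 µM ABA or 20 µM iSB09, in 3 libraries each. A further group, 10 µM iCB, is not analysed here because no column of the table carries its name. DMSO is recorded for the mock medium alone, so a solvent difference and a treatment effect cannot be told apart.

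Jasmonates are lipid-derived hormones that plants make after wounding and insect attack. In plastids a 13-lipoxygenase (LOXD in tomato) oxygenates linolenic acid, allene oxide synthase (AOS) and allene oxide cyclase (AOC) turn the product into OPDA, and in peroxisomes OPDA reductase 3 (OPR3) reduces it before its side chain is shortened. The isoleucine conjugate of jasmonate binds the F-box protein COI1 together with JAZ repressors. The repressors are then degraded, which frees the transcription factor MYC2. In tomato leaves MYC2 activates genes of defence proteins such as proteinase inhibitors, which block insect digestive proteases, threonine deaminase, which degrades an essential amino acid in the insect gut, and the leucine aminopeptidase LapA.

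Library totals lay between 21863058 and 22098966 counts, and the IDs tested numbered 21424. Levels are given as CPM, counts relative to a library size scaled by trimmed means (TMM), and differences as log2 fold changes from 1 edgeR fit with a quasi-likelihood test. A gene is said to rise or fall when its Benjamini-Hochberg adjusted p over all tested genes is under 0.05. As a check on the treatments, Solyc03g096670.3, listed as a clade A PP2C phosphatase of the ABA pathway, lay between 3.98 and 5.09 CPM in mock, between 216 and 289 CPM in ABA and between 52.7 and 58.6 CPM in iSB09. The summed level of 5 photosynthesis IDs listed as shoot markers lay between 18220 and 24150 CPM in mock, between 18180 and 24400 in ABA and between 18820 and 24960 in iSB09. That of 3 IDs listed as root nutrient-uptake markers lay between 135 and 178 CPM in mock, between 63.0 and 74.5 in ABA and between 63.8 and 109 in iSB09. Of these 3, Solyc09g090070.1 made up most of the sum, with means of 142.5 CPM in mock, 52.45 in ABA and 74.28 in iSB09. That ID fell in both treatments. Solyc01g094910.3 had means of 10.89, 14.7 and 9.78 CPM in the same order and passed in neither. Solyc02g069200.3 had 2, 3 and 10 counts in mock and at most 1 in any treated library. The part of the root markers in the results below was not tested. In whole seedlings, fewer cells of a type and less RNA per cell cannot be told apart.

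In ABA the wound-induced proteins with enough reads, threonine deaminase and LapA, both rose, by 2.09 and 1.70 on the log2 scale. One AOS copy and MYC2 fell, by 0.47 and 0.36 on the log2 scale, and LOXD, the other AOS copy, AOC, OPR3 and COI1 did not pass. Of the 9 tested members 2 were therefore higher, against 9.76% of all genes tested (0.878 of 9 genes at that share), and 2 lower, against 9.9% (0.891 of 9). The members' median log2 fold change was 0.0022, beside -0.0040 for all tested genes. Of these 4 calls, that of LapA alone held in each of 17 alternative analyses.

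**Figure D1:**
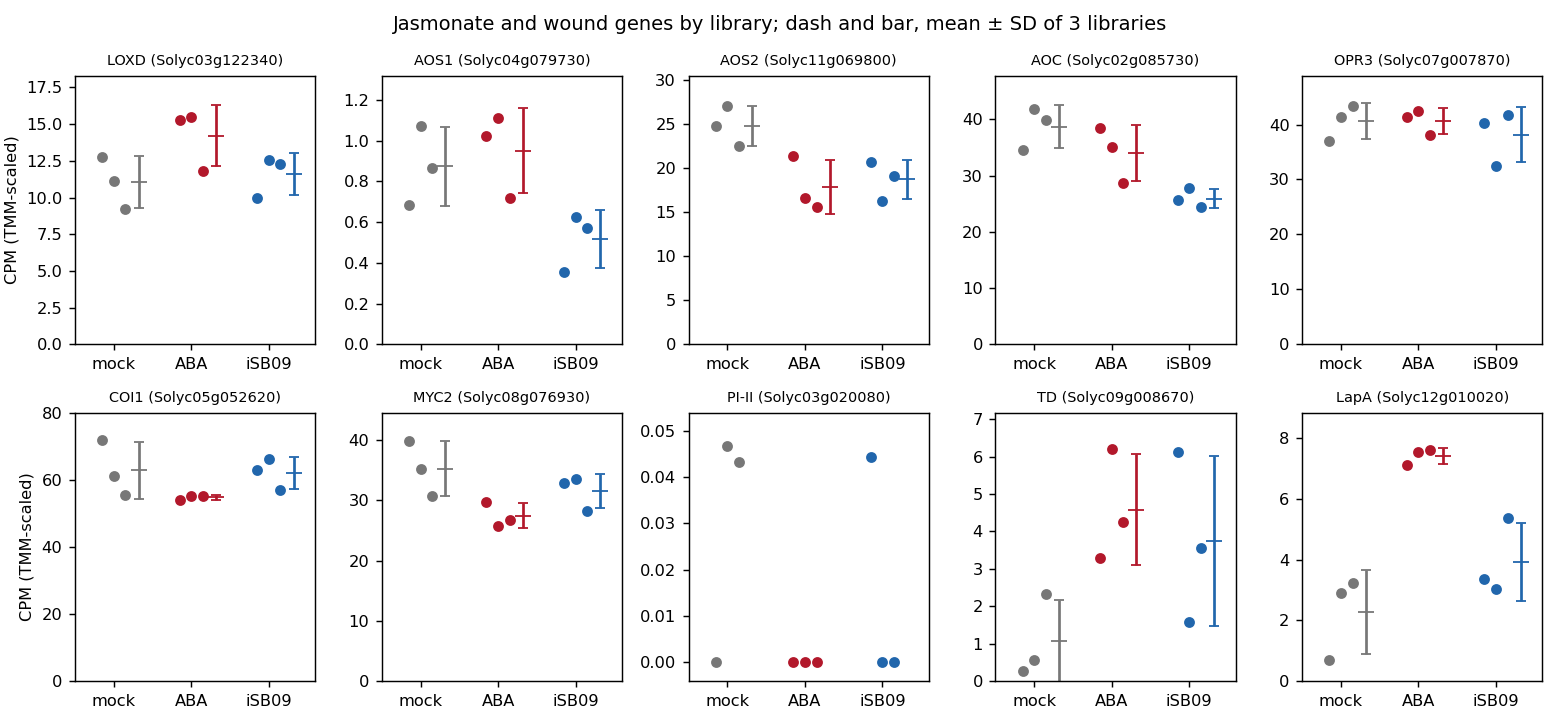
CPM (linear axis, TMM-scaled) of each of the 10 genes in the 3 mock, 3 ABA and 3 iSB09 libraries; points are libraries, and a dash with a bar is mean ± SD (bars are cut at 0; none is drawn for PI-II, proteinase inhibitor II, which had 0 or 1 count per library). LapA stands at 7.12 to 7.61 CPM in ABA and at or below 3.25 CPM in mock; TD is threonine deaminase.

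LOXD (Solyc03g122340), the lipoxygenase that opens the synthesis pathway, had 12.8, 11.1 and 9.22 CPM in mock replicates 1 to 3, 15.3, 15.5 and 11.8 CPM in ABA and 9.97, 12.6 and 12.3 CPM in iSB09. ABA replicates 1 and 2 lay above all mock libraries, while ABA replicate 3 lay inside their range. The log2 fold change for ABA was 0.36 ± 0.16 (SE, n = 3 per group; edgeR adjusted p = 0.14), with a 95% interval of 0.02 to 0.71. A rise of up to 0.71 on the log2 scale is thus within the interval, and the unadjusted p was 0.041. For iSB09 it was 0.072 ± 0.16 (edgeR adjusted p = 0.83; interval -0.28 to 0.42).

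AOS is the cytochrome P450 that draws the lipoxygenase product into jasmonate synthesis, and the set holds 2 copies of it. The copy Solyc11g069800, called AOS2 here, had 24.8, 27.1 and 22.5 CPM in mock, 21.4, 16.6 and 15.6 CPM in ABA and 20.7, 16.3 and 19.1 CPM in iSB09. Every ABA and iSB09 library lay below every mock library. It fell in ABA, from 24.8 ± 2.29 to 17.9 ± 3.11 CPM (SD, n = 3), a log2 fold change of -0.47 ± 0.14 (edgeR adjusted p = 0.036). That call ended with library totals in place of TMM (edgeR adjusted p = 0.0504), when mock replicate 1 (0.0732) or 2 (0.122) was left out, and when ABA replicate 2 (0.147) or 3 (0.139) was. In iSB09 the log2 fold change was -0.40 ± 0.14 and did not pass (edgeR adjusted p = 0.14).

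The other copy, Solyc04g079730 (AOS1 here), was near 1 CPM, with 15, 23 and 20 counts in mock, 23, 24 and 15 in ABA and 8, 13 and 13 in iSB09. The ABA libraries, at 1.02, 1.11 and 0.717 CPM, overlapped the mock libraries at 0.683, 1.07 and 0.866 CPM, and all iSB09 libraries, at 0.355, 0.624 and 0.57 CPM, lay below both groups. Neither difference from mock passed: the log2 fold change was 0.13 ± 0.30 for ABA (edgeR adjusted p = 0.82) and -0.76 ± 0.33 for iSB09 (edgeR adjusted p = 0.23; interval -1.47 to -0.04). Against ABA, iSB09 had -0.88 ± 0.32 (edgeR adjusted p = 0.18).

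AOC (Solyc02g085730), the cyclase that fixes the stereochemistry of OPDA, had 34.5, 41.8 and 39.9 CPM in mock, 38.4, 35.0 and 28.7 CPM in ABA and 25.6, 27.8 and 24.4 CPM in iSB09. The iSB09 libraries were close together and below all 6 others, whereas ABA and mock libraries overlapped. AOC fell in iSB09, from 38.7 ± 3.79 to 25.9 ± 1.76 CPM (SD, n = 3), a log2 fold change of -0.58 ± 0.12 (edgeR adjusted p = 0.019). The call ended without mock replicate 2 (edgeR adjusted p = 0.0822), mock replicate 3 (0.0501) or iSB09 replicate 3 (0.0828). In ABA the value was -0.18 ± 0.12 (edgeR adjusted p = 0.33; interval -0.45 to 0.079). The direct difference, iSB09 against ABA, was -0.39 ± 0.12 and did not pass (edgeR adjusted p = 0.098), but did without ABA replicate 3 (0.043).

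OPR3 (Solyc07g007870), the peroxisomal reductase, had 37.0, 41.4 and 43.4 CPM in mock, 41.4, 42.5 and 38.0 CPM in ABA and 40.3, 32.5 and 41.8 CPM in iSB09. The 3 groups overlapped, with iSB09 replicate 2 lowest. Its log2 fold change was 0.0022 ± 0.11 for ABA (edgeR adjusted p = 0.99; interval -0.24 to 0.24) and -0.088 ± 0.11 for iSB09 (edgeR adjusted p = 0.69; interval -0.33 to 0.15).

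COI1 (Solyc05g052620), the jasmonate receptor subunit, had 72.1, 61.4 and 55.5 CPM in mock, 54.1, 55.3 and 55.4 CPM in ABA and 63.0, 66.4 and 57.1 CPM in iSB09. The ABA libraries lay close together (SD 0.732 CPM) and just below the lowest mock library, while mock was more spread (SD 8.42 CPM), with replicate 1 at its top. The log2 fold change for ABA was -0.20 ± 0.10 and did not pass (edgeR adjusted p = 0.23), and that for iSB09 was -0.019 ± 0.10 (edgeR adjusted p = 0.94; interval -0.25 to 0.21).

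MYC2 (Solyc08g076930), the basic helix-loop-helix factor that JAZ proteins hold back, had 39.8, 35.2 and 30.7 CPM in mock, 29.8, 25.8 and 26.8 CPM in ABA and 32.9, 33.6 and 28.3 CPM in iSB09. All ABA libraries lay below all mock libraries, but mock replicate 3 and ABA replicate 1 were close. MYC2 fell in ABA by 0.36 ± 0.11 on the log2 scale, from 35.3 ± 4.56 to 27.5 ± 2.07 CPM (SD, n = 3), with an edgeR adjusted p of 0.049 next to the threshold. The call ended in 10 of 17 alternatives: with median-of-ratios factors or no filter on low counts (adjusted p = 0.0532 each), with limma voom (0.0548) and with only the 6 libraries compared (0.0527). It also ended on leaving out a single library: mock replicate 1 (0.151) or 2 (0.104), any of the ABA libraries (0.0596, 0.186 and 0.141 for replicates 1 to 3), or iSB09 replicate 1 (0.0612). In iSB09 the log2 fold change was -0.16 ± 0.11 (edgeR adjusted p = 0.47; interval -0.41 to 0.093).

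LapA (Solyc12g010020), the wound-induced aminopeptidase, had 0.683, 2.9 and 3.25 CPM in mock, 7.12, 7.56 and 7.61 CPM in ABA and 3.37, 3.02 and 5.39 CPM in iSB09. The ABA libraries lay close together and above all others. Mock replicate 1, with 15 counts against 62 and 75, was lowest. LapA rose in ABA from 2.27 ± 1.39 to 7.43 ± 0.271 CPM (SD, n = 3), a log2 fold change of 1.70 ± 0.40 (edgeR adjusted p = 0.013), with a range of 1.27 to 2.06 and of adjusted p from 0.000287 to 0.04 over 17 alternatives. In iSB09 the value was 0.79 ± 0.41 and did not pass (edgeR adjusted p = 0.32; interval -0.12 to 1.70). The difference between iSB09 and ABA, -0.92 ± 0.38, did not pass either (edgeR adjusted p = 0.26); it did with only the 6 libraries of these groups (0.0396) and without mock replicate 1 (0.0305).

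A pair of IDs with the next numbers on chromosome 12 stand in the list of other wound defence proteins. Solyc12g010030.3 had 4, 17 and 15 counts in mock and 69, 65 and 88 in ABA, and rose by 2.65 ± 0.48 on the log2 scale (edgeR adjusted p = 0.0025). Solyc12g010040.2, with 244 to 266 CPM in mock and 254 to 270 CPM in ABA, had a log2 fold change of 0.047 ± 0.097 (edgeR adjusted p = 0.79). Reads of near-identical copies may have been divided among such IDs in ways the table does not show.

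Threonine deaminase (Solyc09g008670), whose stable form survives in the insect gut, was uneven within groups, with 6, 12 and 54 counts in mock, 74, 134 and 89 in ABA and 138, 33 and 81 in iSB09. In CPM these are 0.273, 0.56 and 2.34, then 3.29, 6.22 and 4.26, then 6.12, 1.58 and 3.55. All ABA libraries exceeded all mock libraries; iSB09 replicate 2 lay below mock replicate 3. It rose in ABA, from 1.06 ± 1.12 to 4.59 ± 1.49 CPM (SD, n = 3), a log2 fold change of 2.09 ± 0.64 (edgeR adjusted p = 0.041; interval 0.69 to 3.50). The call ended on leaving out mock replicate 1 (edgeR adjusted p = 0.0998) or 2 (0.145), any of the ABA libraries (0.0555, 0.139 and 0.0832 for replicates 1 to 3) or iSB09 replicate 3 (0.0559). In contrast, without mock replicate 3 the log2 fold change was 3.45 (adjusted p = 0.00379). In iSB09 the value was 1.81 ± 0.64 and did not pass (edgeR adjusted p = 0.15), but without mock replicate 3 it was 3.16 and did (0.0197). The direct difference between iSB09 and ABA was -0.28 ± 0.57 (edgeR adjusted p = 0.89), with an interval of -1.53 to 0.96.

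Proteinase inhibitor II (Solyc03g020080), the classical wound marker of tomato leaves, was almost unread. It had 0, 1 and 1 count in mock, 0 in every ABA library and 1, 0 and 0 in iSB09, and was not tested. No group exceeded the floor of 3 counts over its 3 libraries, so no fold is given. That floor is 0.0451 CPM in mock, 0.0462 in ABA and 0.0453 in iSB09. A fall from mock was not detectable at this depth, and a rise above the floor was seen in neither treatment. The 5 IDs with the numbers just before it stand in the wound defence list. Solyc03g020040.3 had 2464 to 3502 counts and Solyc03g020030.3 had 246 to 775 counts over the 9 libraries, and neither passed in ABA or iSB09, whereas Solyc03g020060.3 and Solyc03g020070.4 had at most 4 counts in any library. Solyc03g020050.3 had 2, 1 and 23 counts in mock, 100, 8 and 15 in ABA and 51, 2 and 6 in iSB09, and the groups overlapped (log2 fold change for ABA 2.25 ± 1.21; edgeR adjusted p = 0.24).

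**Figure D2:**
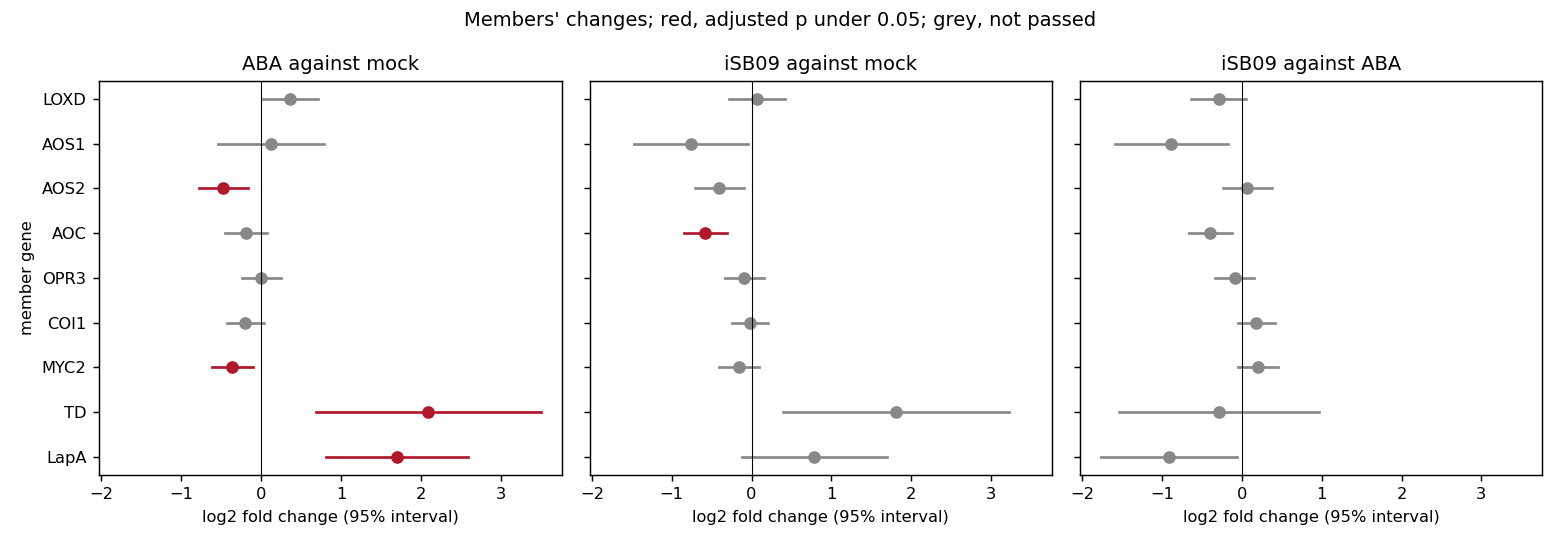
Log2 fold change (x axis) with its 95% interval for the 9 tested members (y axis) in the 3 comparisons; red marks an adjusted p under 0.05 and grey the rest. In ABA against mock the values run from -0.47 for AOS2 to 2.09 for threonine deaminase (TD), whose interval, 0.69 to 3.50, is the widest there.

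After 20 µM iSB09 fewer members were called: 1 of 9, AOC, was lower, against 2.48% of all genes tested (0.223 of 9 genes at that share). None of the 9 was higher, against 2.63% (edgeR; unadjusted p under 0.05 in 1; DESeq2 and limma voom called 0 too). In the lower direction 3 had an unadjusted edgeR p under 0.05, the synthesis genes AOC, AOS2 and AOS1. Such a p was found for 4254 of the 21424 tested genes, both directions together. AOC, AOS2 and AOS1 were each lower in every iSB09 library than in any mock library, whereas LOXD and OPR3 overlapped mock. These 3 were picked by a small p from the same libraries, so their separation is no independent result. The share of all tested genes without overlap was not counted. The members' median log2 fold change was -0.088, beside -0.0029 for all tested genes. Both treatments were set against the same mock libraries, so their values for a gene are not independent of each other. Leaving out mock replicate 3, which had the most threonine deaminase reads of its group, made that gene the 1 member higher in iSB09.

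The direct comparison of iSB09 with ABA sets 20 µM against 10 µM, so the doses differ. By edgeR 0 of 9 members were higher, where 1.76% of all tested genes were, and 0 were lower, where 4.1% were. An unadjusted p under 0.05 was found for 0 higher and 3 lower, and DESeq2 and limma voom also called 0 in both directions. By edgeR 3460 of the 21424 tested genes had such an unadjusted p, both directions together. The members' median was -0.28, beside 0.013 for all tested genes. The 3 lower members with a small unadjusted p were AOC, AOS1 and LapA, each lower in every iSB09 library than in any ABA library. They were picked by that p from the same libraries, and the share of all tested genes without overlap was not counted. As the direct comparison called 0 members, a call for ABA without one for iSB09 is not a difference between the treatments that passed a test. This holds for AOS2, MYC2, LapA and threonine deaminase.

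Libraries of 1 treatment differed from each other, and the members did not vary as a block. Deviations of log2 CPM from the group means were correlated over the 9 libraries for 36 pairs of members, as a description; all pairs share the same libraries and their depth scaling. COI1 and MYC2 deviated together (Pearson r = 0.85, Spearman rho 0.75), and r was 0.64 without the 2 libraries farthest from the median of COI1, mock replicates 1 and 3. COI1 and LapA deviated in opposite directions (r = -0.93, rho -0.92), and r was -0.80 without the same libraries. MYC2 and LapA had r = -0.81 (rho -0.83), and r was -0.62 without mock replicates 1 and 3. These pairs were picked as the extremes of the 36: COI1 with MYC2 had the highest r, and LapA with COI1 and with MYC2 the lowest. All values without 2 libraries still use deviations from the means of all 3 libraries of a group. Mock replicate 2 thus kept a LapA deviation of 0.5958 that mock replicates 1 and 3 helped to set. Whether these correlations are weaker without the 2 libraries can therefore not be read from these values. In mock replicate 1, COI1 and MYC2 were at their highest in mock while LapA and threonine deaminase were at their lowest, and in mock replicate 3 the order was reversed.

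**Figure D3:**
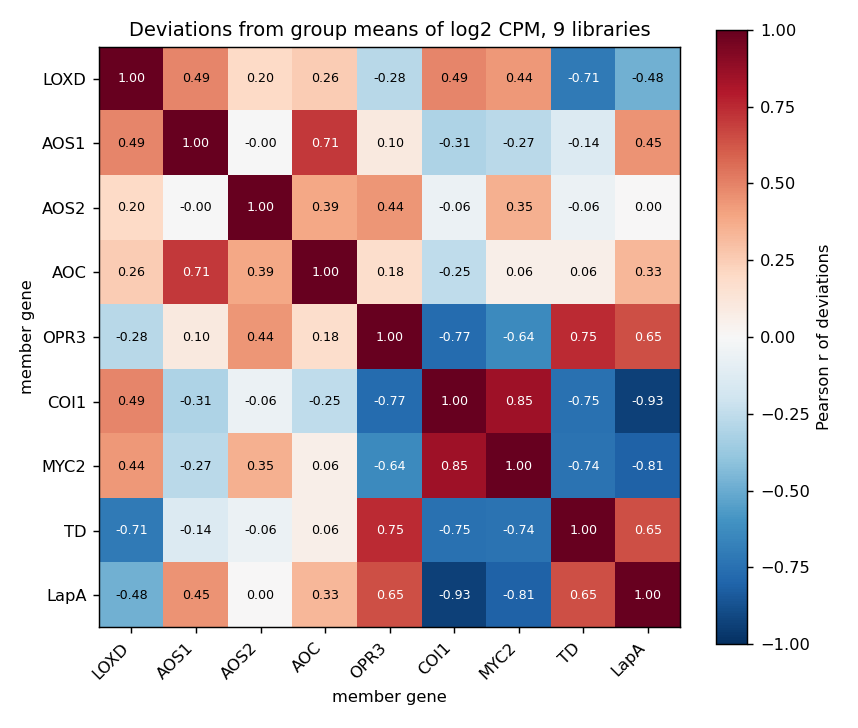
Pearson r, over 9 libraries, of the members' deviations from their group means of log2 CPM, with each member on both axes; red is positive and blue negative. Of the 36 pairs COI1 and MYC2 have the highest r, 0.85, and COI1 and LapA the lowest, -0.93.

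Of the 36 pairs 20 had r above 0, and the median was 0.059. Of the 10 pairs among synthesis genes 8 had r above 0, with a median of 0.23. Among these, AOS1 and AOC had the highest, 0.71 (rho 0.67; 0.69 without iSB09 replicate 1 and ABA replicate 3), and LOXD and OPR3 the lowest, -0.28. Threonine deaminase and LapA had r = 0.65 (rho 0.60), which was 0.068 without mock replicates 1 and 3. As the group means still held these 2 libraries, this value does not show how far the shared variation rests on them.

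A further 4 lists place the 10 genes in their pathway. They hold IDs written down from general knowledge, whose membership no annotation tested here, and no gene name is given for single IDs. Of 12 IDs listed as JAZ repressors, the proteins that COI1 removes, 8 were tested. In ABA 1 fell and 0 rose by edgeR, where the share over all tested genes would give 0.792 and 0.781 of 8, so the count is near the background. An unadjusted p under 0.05 was found for 2 higher, DESeq2 and limma voom called 0 higher, and the list's median was -0.067 on the log2 scale. By edgeR 6851 of the 21424 tested genes had such an unadjusted p in ABA, both directions together. The one that fell, Solyc06g068930.2, went from 5.69, 7.33 and 8.83 CPM to 4.36, 4.96 and 5.31 CPM, a log2 fold change of -0.58 ± 0.18 (edgeR adjusted p = 0.041). The count was 0 with limma voom, with only the 6 libraries compared, without mock replicate 2 or 3 and without ABA replicate 1, 2 or 3. In iSB09, 0 of 8 changed by edgeR, DESeq2 or limma voom (unadjusted p under 0.05 in 1, lower, and 1 called lower without mock replicate 3). The share over all tested genes would give 0.211 of 8 higher and 0.198 lower, and the list's median was -0.14.

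The list of other oxylipin and jasmonate metabolism, the routes that supply, branch from and finish jasmonate synthesis, had 9 of 10 IDs in the table and 8 tested. In ABA 1 rose and 2 fell, where the share over all tested genes would give 0.781 and 0.792 of 8; the rise is near the background. The list's median was -0.012 on the log2 scale. Solyc08g014000.3 fell from 310, 324 and 309 CPM in mock to 105, 96.3 and 93.3 CPM in ABA, a log2 fold change of -1.68 ± 0.10 (edgeR adjusted p = 1.4e-06). In iSB09 it stood between, at 223, 183 and 199 CPM, and fell by 0.64 ± 0.10 on the log2 scale (edgeR adjusted p = 0.0034). By edgeR it was the 1 ID of the list called there, where the share over all tested genes would give 0.211 of 8 higher and 0.198 lower. The count lower was 2 with DESeq2 and without mock replicate 3, and 1 was higher with DESeq2. Solyc10g011660.3 fell in ABA by 1.18 ± 0.13 on the log2 scale, from 69.4, 69.2 and 50.5 to 29.6, 27.1 and 26.5 CPM (edgeR adjusted p = 7.6e-05). These same IDs were the 2 of the list that were higher in iSB09 than in ABA, by 1.04 ± 0.10 (edgeR adjusted p = 0.000216) and 0.74 ± 0.13 (0.00642). At the share over all tested genes 0.141 of 8 would be higher in that comparison.

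Other jasmonate and systemin signalling IDs, 10 of 11 tested, gave 3 rises and 1 fall in ABA, where the share over all tested genes would give 0.976 and 0.99 of 10; the fall is at the background. The median was 0.17 on the log2 scale. In iSB09 there were 2 rises and 0 falls by edgeR, DESeq2 and limma voom (unadjusted p under 0.05 in 1, lower), beside 0.263 and 0.248 of 10 at the share over all tested genes, and the median was 0.024. Solyc07g063410.3 had 2.09, 2.76 and 2.34 CPM in mock, 37.3, 32.4 and 23.9 in ABA and 11.8, 17.4 and 15.5 in iSB09. Its log2 fold change was 3.70 ± 0.21 in ABA (edgeR adjusted p = 1e-06) and 2.63 ± 0.21 in iSB09 (6.4e-05). Solyc12g013620.2 rose by 2.85 ± 0.26 in ABA (edgeR adjusted p = 1.9e-05) and by 1.71 ± 0.25 in iSB09 (0.0025). Set directly against ABA, iSB09 gave lower levels of both, with log2 fold changes of -1.07 ± 0.18 and -1.14 ± 0.24 (edgeR adjusted p = 0.0052 and 0.017). The share over all tested genes would give 0.41 of 10 lower in this comparison. The count of 2 lower was 1 without ABA replicate 1 or 2 or iSB09 replicate 1.

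Other wound defence proteins, with 12 of 14 IDs tested, moved in both directions in ABA. One rose, Solyc12g010030.3 described above, and 3 fell, where the share over all tested genes would give 1.17 and 1.19 of 12; the rise is at the background. The list's median was 0.29 on the log2 scale. The count of rises was 2 with limma voom and without mock replicate 3. All 3 falls were of IDs with close numbers on chromosome 8: Solyc08g074680.3, Solyc08g074682.1 and Solyc08g074683.1. The first had 31.5, 25.9 and 22.9 CPM in mock, 4.18, 3.67 and 8.27 CPM in ABA and 13.8, 6.67 and 9.29 CPM in iSB09, with every treated library below every mock library. Its log2 fold change was -2.32 ± 0.32 in ABA (edgeR adjusted p = 0.000376) and -1.43 ± 0.30 in iSB09 (0.0197). By edgeR it was the 1 ID of the list called in iSB09, where 0 rose (unadjusted p under 0.05 in 1). The share over all tested genes would give 0.316 of 12 higher and 0.297 lower. The count of rises was 1 with DESeq2, with no filter on low counts and without iSB09 replicate 2, and 0 with limma voom. The count of falls was 2 with DESeq2, 3 without iSB09 replicate 1, and 0 without mock replicate 1 or 2 or iSB09 replicate 2 or 3.

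**Figure D4:**
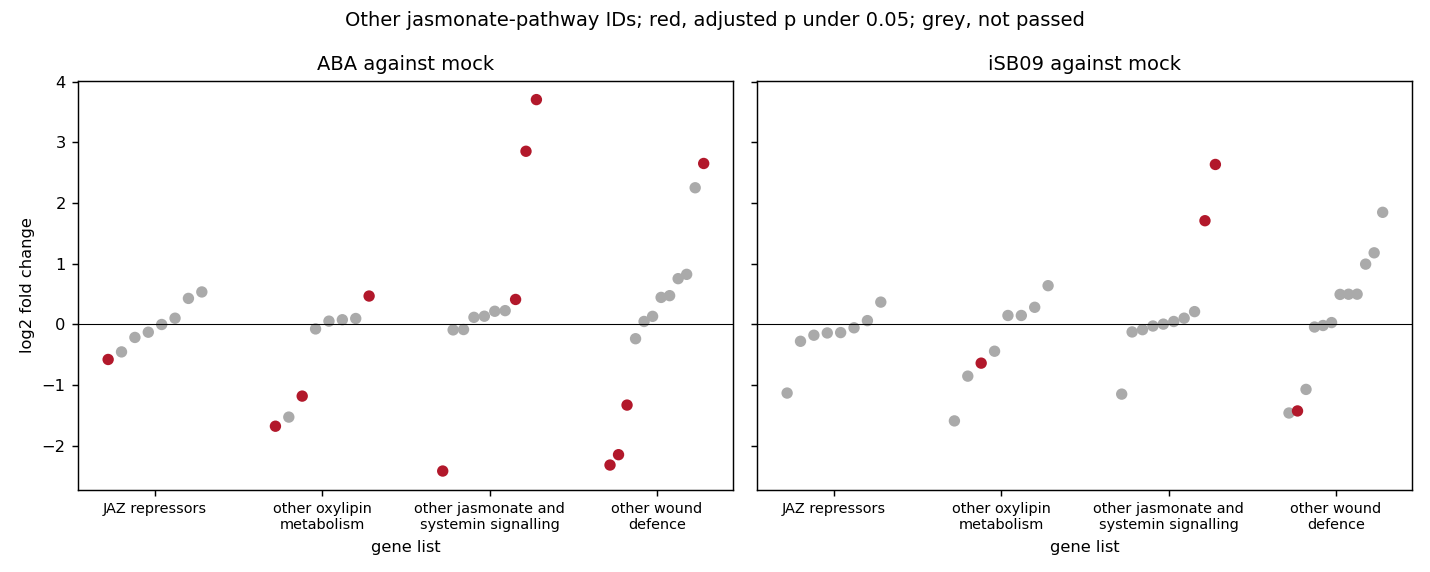
Log2 fold change (y axis) of each tested ID of the 4 further lists (x axis), ordered by value within a list, for ABA and for iSB09 against mock; red marks an adjusted p under 0.05 and grey the rest. In ABA the signalling list reaches 3.70 and the wound defence list runs from -2.32 to 2.65, while the 8 JAZ repressors stay between -0.58 and 0.53.

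Among 12722 other IDs with a mean of at least 10 CPM, those whose log2 CPM was most like MYC2 over the 9 libraries were Solyc11g011160.1 (Pearson r = 0.99), Solyc01g008140.4 (0.97) and Solyc08g068700.1 (0.97); for deviations from group means r was 0.99, 0.98 and 0.96. Those most like LOXD were Solyc02g064680.4 (0.95), Solyc06g065100.3 (0.93) and Solyc05g013220.2 (0.92), with 0.90, 0.92 and 0.89 for deviations. They are the highest of many values, and the table does not name these IDs.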

How the data were processed

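The authors deposited 1 table of read counts per gene ID, unnormalised whole numbers. Tools listed, per the submitters' processing notes, are STAR, cutadapt, FastQC and DESeq2, with no version or role. Build, annotation, counter and strand setting: not given in the sources used here. Libraries were made with a strand-specific mRNA kit, per the labels' protocols. Columns were matched to samples by name: 9 matched, and 3 whose name is in no label were not used, which leaves iCB out. Counts were analysed in R 4.3.3 with edgeR 4.0.16 (filterByExpr, TMM, glmQLFit and glmQLFTest, two-sided, 1 coefficient per treatment, no replicate term, Benjamini-Hochberg over 21424 genes), after the procedure was tested on simulated data. The common biological coefficient of variation was 0.14. SE comes from the F statistic, and intervals are at 95%. DESeq2 1.42.0 and limma 3.58.1 were alternatives. Libraries of a group differed by more than sampling noise (chi-square divided by its degrees of freedom, 7.47 to 28.5). Replicates are called biological by the series' text, with no more said. Floors cover counting error only. All 10 members are named; of each list, up to 2 called IDs per treatment with the smallest adjusted p are; for MYC2 and LOXD, the 3 most alike IDs. Other IDs named (neighbours of LapA, of proteinase inhibitor II and of Solyc08g074680.3) were chosen after their values were seen. Members and lists were chosen with earlier results of these data known. No sequence table was at hand, so no sequence is shown.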

Additional observations from a re-analysis of the deposited data

How the results depend on the processing

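Over 17 alternatives, the 27 log2 fold changes of tested members gave 459 values, of which 417 kept direction and side of the threshold, 25 lost a call, 4 gained one and 13 changed sign; 0 of the 13 was called. In ABA, members higher were 1 to 2 and members lower 0 to 2 when 1 library was left out. Members lower were 1 with median-of-ratios factors, library totals, no filter, limma voom, or only the 6 libraries compared. In iSB09 against mock, both counts were 0 to 1 without 1 library, and in iSB09 against ABA members lower were 0 to 1, and 1 with only the 6 libraries compared. All genes lower were 1288 to 2361 for ABA, 245 to 651 for iSB09 (319 with only the 6 libraries compared) and 517 to 906 for iSB09 against ABA, where all genes higher were 181 to 406. The values near 0 that changed sign were, with 1 library left out, those for ABA of AOS1 (-0.023 to 0.30) and OPR3 (-0.061 to 0.052; -0.029 with library totals); those for iSB09 of LOXD (-0.044 to 0.19), OPR3 (-0.16 to 0.015) and COI1 (-0.10 to 0.090); and those for iSB09 against ABA of AOS2 (-0.021 to 0.22), OPR3 (-0.16 to 0.0125) and threonine deaminase (-0.83 to 0.075). Causes were not tested. Another scaling moved the median of all genes by at most 0.03 on the log2 scale.

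Replicate numbers are shared by the groups, but same-numbered libraries did not deviate together: r lay between -0.19 and 0.34 over the 9 pairs, and 3 of 9 libraries correlated best with their own number. With a replicate block 1 member rose in ABA, since threonine deaminase, at a log2 fold change of 2.24, had an adjusted p of 0.0549, and the other member counts were as without it. Genes called lower were 1940 for ABA, and higher 1964. With the block the wound defence list had 2 rises in ABA, 1 in iSB09 and 1 in iSB09 against ABA, the oxylipin list 2 falls in iSB09, and the JAZ list 0 falls in ABA.

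Depth limits AOS1, at 8 to 24 counts a library, threonine deaminase, at 6 to 138, and, for a fall, proteinase inhibitor II, at 0 or 1.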
